A study of Mus musculus with 23 samples.

Results

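The livers of 10 Ehhadh knockout (KO) mice, 5 given saline and 5 given L-AC, were compared gene by gene. They were taken from 23 mouse liver libraries by their labels, genotype Ehhadh knockout with treatment saline or L-AC. The other 13 libraries were wild-type (WT) livers, 7 with saline and 6 with L-AC, and were used to estimate the spread and to set the WT response beside that of the KO. Every mouse was of the mixed strain B6/129, each library was polyA-selected liver RNA of a single animal, and all 10 KO libraries, saline controls included, carried the Ehhadh deletion. The KO saline mice were 31 to 44 weeks old and the KO L-AC mice 28 to 38 weeks, so the treated animals were on balance younger. The labels give the treatment only as L-AC, which is taken here, from knowledge of the study, to be L-aminocarnitine, an inhibitor of carnitine palmitoyltransferase 2 (CPT2). Its dose, route and time, the sex of the mice, and the part of Ehhadh that was removed are not given in the sources used here.

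Fatty acids are oxidised in mitochondria and in peroxisomes. Long-chain acyl groups enter mitochondria as carnitine esters, and CPT2 turns them back into acyl-CoA inside, so its inhibition stops mitochondrial oxidation of long-chain fat. Ehhadh encodes the peroxisomal L-bifunctional protein, which carries out the hydratase and dehydrogenase steps of peroxisomal beta-oxidation, including that of the dicarboxylic acids made by omega-oxidation. PPARA, a nuclear receptor that binds fatty acids, drives genes of both pathways in liver during fasting.

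The 10 KO libraries held 24656392 to 48095959 counted reads, and the L-AC libraries, at 26325848 to 31206300, were the shallower group. On the leading principal component of all 23 libraries, which took 55.18% of the variance, KO saline libraries lay between -50.76 and -44.14 and KO L-AC libraries between 36.44 and 68.54. Levels are given as CPM, counts scaled to library size, and correlations of log2 CPM between replicates had a median of 0.9861 in KO saline and 0.9768 in KO L-AC. Hepatocyte markers were present at a summed 63610 to 73690 CPM in saline and 34790 to 57910 CPM in L-AC livers, and of the neutrophil markers 3 of 10 had enough reads to be tested.

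Values below are CPM after scaling (TMM) in the 5 saline and then the 5 L-AC libraries of the KO, listed from library 1 to 5 of each group, which is a name and no order. Ehhadh itself stood at 132, 127, 253, 106 and 90.9 CPM in KO saline and at 2144, 1476, 1421, 1631 and 1617 CPM in KO L-AC. The KO groups did not overlap, and the log2 fold change was 3.55 ± 0.27 (SE, adjusted p = 1.15e-09). In the WT it ranged from 634.8 to 1635 CPM with saline and from 10260 to 14650 CPM with L-AC, so that each KO library lay below every WT library of the same treatment. Reads on exons that the deletion leaves would still be counted for this gene, which lies on chr16:21761285-21787834 (mm10, minus strand).

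L-AC changed a large share of the genes expressed in KO liver, in both directions to a similar extent. Of 14196 genes tested, 3571 rose (25.2% of those tested) and 3353 fell (23.6%) at an adjusted p under 0.05 by edgeR's quasi-likelihood test. More than 2-fold changes were called for 977 rising and 1178 falling genes, and more than 8-fold changes for 110 and 81. The median log2 fold change over all genes was -0.0054. The 5 saline and 5 L-AC values did not overlap for 2427 genes that were higher (17.1% of those tested) and 2198 that were lower (15.5%). The called rising genes held a median of 17.95% of the reads in saline and 37.52% in L-AC libraries, and the called falling genes 50.45% and 29.5%, which describes genes chosen by the same contrast.

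**Figure D1:**
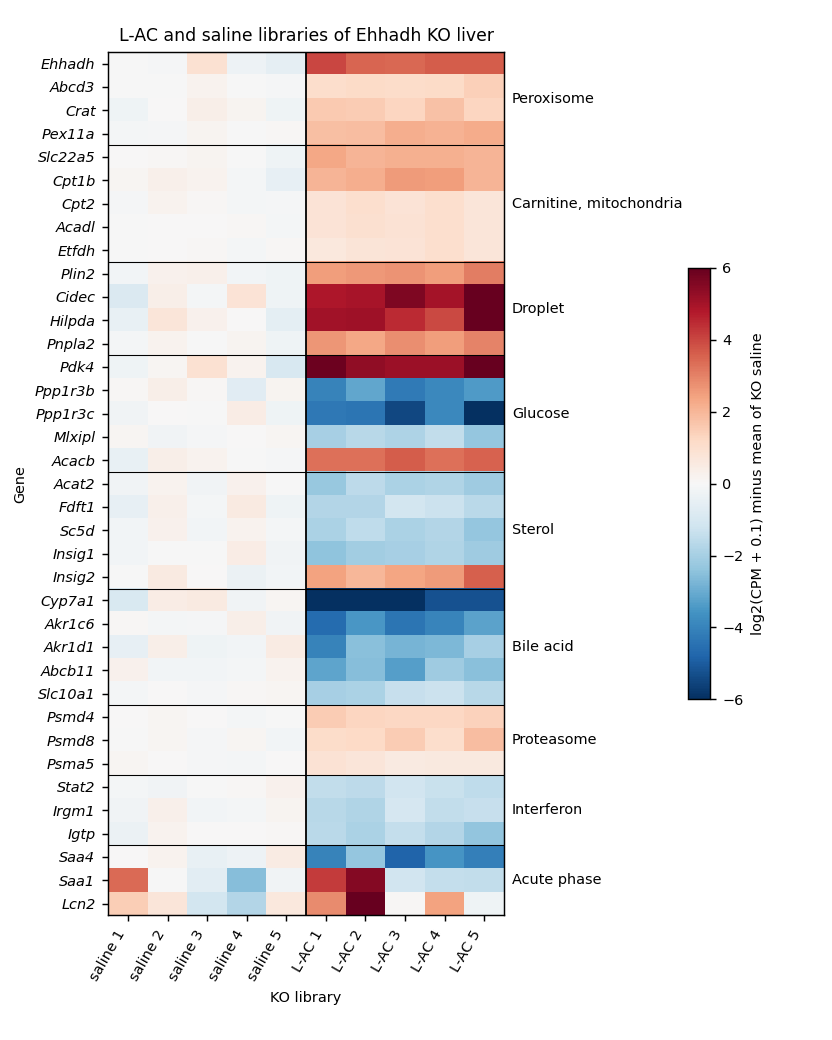
Log2 CPM of 37 genes in each of the 10 KO libraries, as the difference from the mean of the 5 KO saline libraries, with genes in rows by pathway and libraries in columns. Ehhadh, Pdk4 and the droplet genes are above the saline mean in all 5 L-AC libraries, and Cyp7a1 and the sterol synthesis genes are below it in all 5. Colours stop at a difference of 6 in either direction.

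Among rising genes at a mean of at least 1 CPM, the largest fold changes belonged mostly to genes that were close to silent in saline-treated KO liver. Tg, the thyroid hormone precursor thyroglobulin, was at 0.0358, 0, 0.0519, 0.109 and 0.0429 CPM in saline and 5.66, 3.97, 4.21, 6.01 and 26.6 CPM in L-AC (log2 fold change 7.40 ± 0.65, adjusted p = 8.41e-09). Library 5 was the highest of the L-AC group, all 5 were above every saline library, and without it the change was 6.49. Elovl7, a fatty acid elongase, was at 0.787, 1.51, 0.987, 0.654 and 0.343 CPM in saline and at 54.9, 38.1, 125, 29.9 and 23.7 CPM in L-AC (6.05 ± 0.52). Bmper, a secreted regulator of BMP signalling, rose 71.1-fold, the chemokine receptor gene Cxcr1 53.4-fold, the sodium channel subunit Scn4b 48.8-fold and the ephrin receptor Ephb2 48.3-fold. None of these 6 genes had an L-AC library within the saline range.

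In 3 more of the 10 largest increases, single libraries set the size of the value. Myo16, an unconventional myosin, was at 0, 0.0839, 0.026, 0 and 0 CPM in saline and 2.66, 0.34, 2.14, 0.179 and 18.8 CPM in L-AC, and its log2 fold change of 7.85 was 5.99 without L-AC library 5 and 8.89 without saline library 2. Fabp3, the fatty acid binding protein known from heart, was at 0.143, 0.252, 0.104, 0.0272 and 0.0429 CPM in saline and 0.546, 20.4, 3.25, 3.72 and 0.185 CPM in L-AC. The groups overlapped, and its log2 fold change of 5.74 (adjusted p = 2.51e-04) was 4.19 without L-AC library 2. Ivl, the epidermal envelope protein involucrin, had no read in any saline library and 0.0341, 0, 0.656, 0.143 and 9.48 CPM in L-AC. That rise rested on L-AC library 5, without which the adjusted p was 0.0564.

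A number of genes fell to a small share of their level in saline. Cyp7a1, the hydroxylase that limits the rate at which bile acids are made, was at 29.5, 75.2, 79.7, 48.4 and 59.9 CPM in saline and at 0.307, 0.491, 0.621, 1.39 and 1.39 CPM in L-AC. No L-AC library came near the saline range, and the log2 fold change was -6.10 ± 0.69 (adjusted p = 2.62e-07). Ppp1r3c, a subunit that targets a phosphatase to glycogen, was at 61.5, 70.8, 70.1, 97.1 and 59.3 CPM in saline and 3.51, 3.29, 1.52, 4.75 and 0.926 CPM in L-AC (-4.69 ± 0.52). Hsd3b2, a steroid dehydrogenase, fell 31.4-fold, Apol7a 21.2-fold, Keg1 21.3-fold, Clec2h 21.8-fold, AW549542 29.8-fold and the beta-3 adrenergic receptor Adrb3 19.2-fold, each without overlap. Nfe2, an erythroid transcription factor, also fell (log2 fold change -4.45, or -3.86 without saline library 2), with saline library 1 at 0.143 CPM inside the L-AC range.

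Some abundant genes gained or lost the most RNA, as the difference in mean CPM. Apoa4, an apolipoprotein of triglyceride-rich particles, was at 379.8, 732, 2278, 2284 and 512 CPM in saline and 13350, 9763, 14620, 14090 and 15640 CPM in L-AC (3.45 ± 0.49, adjusted p = 5.21e-06). Cyp4a14, Mat1a, which makes the methyl donor S-adenosylmethionine, and Plin2 were among the others that gained, with log2 fold changes of 1.62, 1.20 and 2.68. Albumin (Alb) went from 43310 ± 3913 CPM (SD, n = 5) to 27530 ± 8437 CPM (-0.65 ± 0.17), and Apoe, Trf, which encodes transferrin, and Mup15 fell by 1.74-fold, 2.01-fold and 2.07-fold. Rn45s, the ribosomal RNA precursor that polyA capture should deplete, fell as well (-1.36 ± 0.30) from 0.37 to 1.37% of reads in saline to 0.24 to 0.55% in L-AC libraries, and how RNA capture bears on it was not tested.

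PPARA targets outside the oxidation enzymes rose together in the KO. Of 30 tested, 21 rose and 2 fell (Vnn3 and the co-activator Ppargc1a), with a median log2 fold change of 1.10, beside 0.98 for the same genes in the WT. Pdk4, the kinase that switches off pyruvate dehydrogenase, was at 19.97, 26.6, 45.5, 27.8 and 12.5 CPM in saline and 1438, 959, 863, 868 and 2158 CPM in L-AC (5.57 ± 0.44, adjusted p = 2.00e-09). The lowest L-AC library stood far above the highest saline library. Slc22a5, the plasma membrane carnitine transporter, was at 81.2, 84, 88.1, 78.9 and 67.2 CPM and 395, 326, 344, 354 and 326 CPM (2.13 ± 0.15, adjusted p = 3.59e-10), with little spread in either group. The thioesterase genes Acot1 and Acot2, near-identical copies between which reads may be misplaced, rose 7.43-fold and 12.7-fold. Angptl4, a fasting-induced lipase inhibitor, did not pass the test (0.35 ± 0.18, adjusted p = 0.116). The fall of Ppargc1a was lost in 7 of the 10 omissions of a library (adjusted p up to 0.114).

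Sequences just upstream of these genes were searched for the element to which PPARA binds with its partner RXR, a direct repeat spaced by a single base (DR1), spelled AGGTCANAGGTCA, on both strands with up to 2 mismatches. Promoters were RefSeq windows (GRCm38.p6) from 250 bases before to 50 after the start of a transcript, found by symbol for 10472 of the 14196 genes. A match was held by 7 of 26 PPARA targets (26.9%), by 2 of 23 peroxisomal oxidation genes (8.7%) and by 406 of all 10472 genes (3.88%). The list is made of known targets, so its share describes the list. Among genes called in the KO the share was 3.71% of those that rose and 4.4% of those that fell. Matches of named genes are shown for Plin2 (chr4:86670010-86670309, minus strand), the lipid droplet protein perilipin 2, and Ucp3 (chr7:100472741-100473040, plus strand), a mitochondrial uncoupling protein, written along the gene with the match in capitals.
Plin2: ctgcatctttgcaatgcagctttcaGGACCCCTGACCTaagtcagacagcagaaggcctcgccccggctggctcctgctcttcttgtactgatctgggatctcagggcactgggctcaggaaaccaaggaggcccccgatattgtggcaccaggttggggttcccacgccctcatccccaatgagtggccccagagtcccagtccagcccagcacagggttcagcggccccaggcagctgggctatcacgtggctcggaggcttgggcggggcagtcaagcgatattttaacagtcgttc
Ucp3: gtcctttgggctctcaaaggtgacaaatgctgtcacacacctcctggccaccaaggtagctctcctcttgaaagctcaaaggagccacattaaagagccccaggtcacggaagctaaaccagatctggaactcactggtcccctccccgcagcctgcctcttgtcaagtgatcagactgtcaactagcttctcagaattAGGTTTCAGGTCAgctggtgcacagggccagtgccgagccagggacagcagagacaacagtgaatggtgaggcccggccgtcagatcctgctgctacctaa
The match begins 225 bases before the start of Plin2 and 51 bases before that of Ucp3. Plin2 was at 905, 1224, 1250, 907 and 836 CPM in saline and 5673, 6164, 6587, 5834 and 8601 CPM in L-AC, without overlap. Ucp3 was at 0.0716, 0.126, 0.026, 0.0817 and 0.0429 CPM and 1.13, 3.36, 2.04, 3.07 and 0.0926 CPM, and L-AC library 5 lay inside its saline range. A match alone did not go with a rise, since Fabp1, the liver fatty acid binding protein, had a match with 1 mismatch and a log2 fold change of -0.13 ± 0.26 (adjusted p = 0.709).

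In peroxisomal beta-oxidation 16 of 31 genes tested rose, the deleted gene Ehhadh among them, and 7 fell. Abcd3, which imports acyl-CoA into peroxisomes, rose from 757 ± 62.3 to 1712 ± 179 CPM (SD, n = 5), or 2.26-fold, Crat, the carnitine acetyltransferase that exports short acyl groups, 2.79-fold, and the thiolase Acaa1b 2.8-fold. Of 24 genes for peroxisome assembly, 10 rose and 3 fell. Pex11a, which drives peroxisome division, was at 84.1, 86.8, 103, 92 and 96.2 CPM and 323, 333, 412, 395 and 435 CPM (2.04 ± 0.25). Pex19 and Pex16, which act in membrane assembly, rose 2.04-fold and 1.85-fold, whereas Pex7, Pex26 and catalase (Cat) fell (-0.67, -0.49 and -1.06 on the log2 scale).

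Omega-oxidation, which makes the dicarboxylic acids that the deleted enzyme handles, did not move as a block. Of 18 genes tested 6 rose and 9 fell, beside 25.2% and 23.6% of all genes, with a median log2 fold change of -0.43. The hydroxylase Cyp4a14 was at 3307, 3350, 4582, 2536 and 3767 CPM in saline and 9814, 11510, 11450, 13770 and 7548 CPM in L-AC, higher in each L-AC library (1.62 ± 0.41, adjusted p = 0.00215). In contrast Adh4, an alcohol dehydrogenase, was at 134, 90.7, 112, 129.5 and 137 CPM and 31.4, 31.5, 25, 30.3 and 23.4 CPM (-2.09 ± 0.13, adjusted p = 1.30e-10), the medium-chain acyl-CoA synthetases Acsm1 and Acsm5 fell 2.98-fold and 3.77-fold, and the hydroxylase Cyp4v3 1.73-fold.

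The carnitine shuttle rose, with 7 of 13 genes higher and 1 lower, the carnitine synthesis enzyme Bbox1, or 2 lower without saline library 1 (median 0.66). Cpt2, which encodes the enzyme that L-aminocarnitine inhibits, was at 260.2, 312, 283, 248 and 261 CPM in saline and at 486, 553, 486, 540.5 and 444 CPM in L-AC (0.88 ± 0.09, adjusted p = 6.85e-08), a rise without overlap. Cpt1a, the liver form of the outer-membrane transferase, rose 1.85-fold. Cpt1b, the muscle form, was at 25.6, 29.9, 27.5, 21.8 and 16.6 CPM and 96.7, 109, 140.4, 136 and 96.7 CPM (2.25 ± 0.22), and 94.8% of its exon length is shared with the read-through gene ChkbCpt1b, so these reads cannot be given to either. Slc22a21, another carnitine transporter gene, rose 3.66-fold. Mitochondrial beta-oxidation had 8 of 18 genes higher and 3 lower. The dehydrogenases Acadl and Acad11 and the electron carrier Etfdh rose 1.84-fold, 1.79-fold and 1.74-fold, and Hadh, Acaa2 and Echs1, of the later steps of the spiral, fell 1.47-fold, 1.57-fold and 1.29-fold.

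Ketone body genes showed no such rise: 1 of 9 rose (2 without saline library 2) and 3 fell, beside 25.2% and 23.6% of all genes. Bdh1, which interconverts both ketone bodies, was lower at 219.5, 297, 163, 276 and 52 CPM in L-AC against 412, 361, 430.0, 491 and 332 CPM in saline (-1.01 ± 0.36, adjusted p = 0.0225), a call lost without L-AC library 3 (adjusted p = 0.0518). Bdh2 fell 3.46-fold, and the monocarboxylate transporter Slc16a1 rose 1.79-fold while Slc16a7 fell 1.44-fold, the last no longer called without L-AC library 1 (adjusted p = 0.054).

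Lipid droplet and triglyceride genes gave 23 of 34 higher and 6 lower, with a median log2 fold change of 1.01. Cidec, which fuses droplets, was at 11.3, 26.7, 19.2, 36.6 and 17.5 CPM in saline and 597, 629, 1016, 661 and 1614 CPM in L-AC (5.34 ± 0.48, adjusted p = 1.09e-08). Hilpda, an inhibitor of droplet lipolysis, was at 1.79, 4.19, 3.04, 2.53 and 1.63 CPM and 83.9, 86.8, 57.9, 39.9 and 171 CPM (5.08 ± 0.41). Pnpla2, the lipase that Hilpda inhibits, rose with them from 112 ± 14.7 to 709 ± 129 CPM (SD, n = 5), or 6.35-fold. None of the 3 genes had overlapping groups, so genes for storing and for releasing droplet fat were both higher. Mttp, which loads triglyceride onto lipoproteins, rose 1.9-fold.

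**Figure D2:**
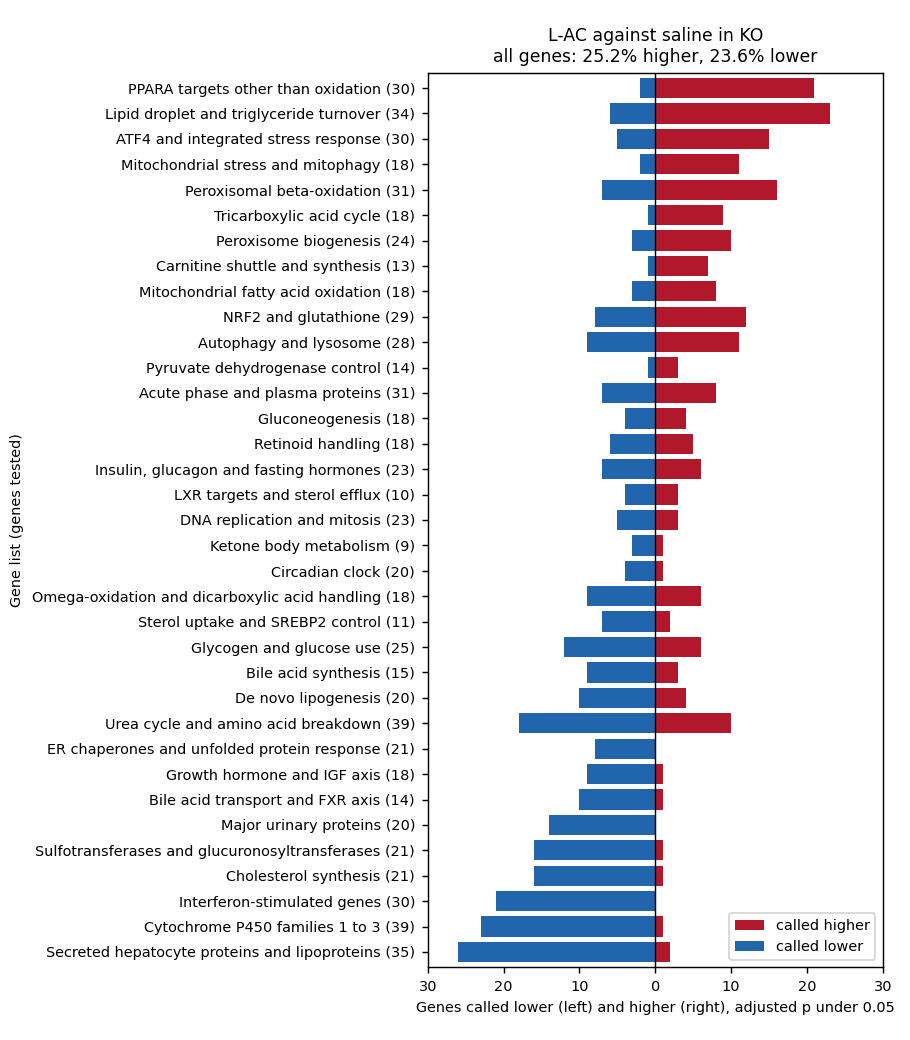
Number of genes called higher (right) and lower (left) with L-AC in the KO in each of 35 pathway lists, with the number tested after each name and the percentage of all genes called higher and lower in the title. Among the lists drawn, bars to the right are longest for the lipid droplet and PPARA lists, with 23 and 21 genes. Bars to the left are longest for the secreted protein, P450 and interferon lists. Lists of proteasome, ribosomal and oxidative phosphorylation subunits, of cell type markers and of pericentral and periportal genes are not drawn.

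In de novo lipogenesis more genes fell than rose, with 10 of 20 lower and 4 higher (median -0.48). The summed CPM of the 20 genes overlapped, at 4935 to 9177 in saline (median 6465) and 4273 to 10270 in L-AC (median 7843). Mlxipl, the glucose-sensing transcription factor ChREBP, was at 426, 345, 382, 404 and 426 CPM in saline and 100.5, 126, 109, 140.1 and 79.5 CPM in L-AC (-1.84 ± 0.16, adjusted p = 5.26e-09). Its target Pklr, liver pyruvate kinase, fell 2.62-fold and Mid1ip1, an activator of acetyl-CoA carboxylase, 3.57-fold. Acacb, the mitochondrial acetyl-CoA carboxylase whose product blocks CPT1, rose against them from 23.7, 41.5, 37, 31.5 and 30.5 CPM to 315, 315, 399.8, 315 and 378 CPM (3.39 ± 0.27, adjusted p = 2.33e-09). The other 3 that rose were Elovl5, Fads2 and Me1 (0.81, 0.51 and 0.96 on the log2 scale), of which Fads2 was not called in 5 of the 10 omissions of a library (adjusted p up to 0.0917). Fasn, fatty acid synthase, did not pass the test (-0.27 ± 0.31, adjusted p = 0.489) and had L-AC values from 42.3 to 179 CPM.

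Genes for using glucose and storing it as glycogen fell in 12 of 25 cases and rose in 6 (median -0.94). Ppp1r3b, the main liver subunit that targets a phosphatase to glycogen, was at 324, 389.7, 327, 192 and 349.9 CPM in saline and 18.9, 35.3, 16.1, 20.9 and 29 CPM in L-AC (-3.72 ± 0.37, adjusted p = 5.37e-08). Phka2, a subunit of phosphorylase kinase, fell 1.96-fold. Of 18 gluconeogenesis genes 4 were higher and 4 lower, beside 25.2% and 23.6% of all genes. The aminotransferases Gpt2 and Got1 and Pck2 were among those that rose, 3.29-fold, 3.91-fold and 3.04-fold, and Fbp1, Slc37a4 and the regulators Klf15 and Ppargc1a fell 1.73-fold, 1.71-fold, 1.94-fold and 1.55-fold. The enzymes Pck1 and G6pc, which frame the pathway, did not pass the test (adjusted p = 0.0992 and 0.275). Pck2 owed its size to L-AC library 3, without which its log2 fold change went from 1.61 to 0.56 (adjusted p = 0.0629), and the call on Ppargc1a was lost in 7 of 10 omissions (up to 0.114).

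In pyruvate dehydrogenase control 3 of 14 genes rose and 1 fell (2 without saline library 1 or L-AC library 3). Of all genes 25.2% rose and 23.6% fell. Beside the rise of Pdk4, the kinase gene Pdk1 fell 2.1-fold, and the complex subunits Dld and Pdhx rose 1.31-fold and 1.32-fold. In the tricarboxylic acid cycle 9 of 18 genes rose and 1 fell, Idh2 (-0.69), which was not called without L-AC library 1 or 5 (adjusted p = 0.0563 and 0.0587). Without L-AC library 2 or 4, 2 of these genes were lower. Dlst, Fh1 and Mdh2 rose 2.03-fold, 1.89-fold and 1.63-fold. Of 38 subunits of oxidative phosphorylation 11 rose and 2 fell (Ndufa1 and Ndufa4), beside 25.2% and 23.6% of all genes. Their median log2 fold change was 0.026. The higher count was 7 without L-AC library 4 or with only the KO libraries fitted, the lower count 4 without L-AC library 2, and Ndufa4 was lost without saline library 2 or L-AC library 3 (adjusted p = 0.0517 and 0.0757). Cycs, cytochrome c, had the smallest p among them and rose 2.45-fold.

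Cholesterol synthesis fell along the pathway: 16 of 21 genes were lower and 1 higher, the late-step gene Hsd17b7 (0.77), with a median log2 fold change of -1.34 in the KO and -1.57 in the WT. Acat2, which makes acetoacetyl-CoA at the start, was at 107, 144, 109, 148 and 121 CPM in saline and 26.1, 41.4, 33, 35.9 and 28.1 CPM in L-AC (-1.94 ± 0.16, adjusted p = 5.29e-09). Later steps fell too, with Fdft1 (squalene synthase) 2.87-fold, Ebp 1.68-fold and Sc5d 3.67-fold lower. Of Fdft1, 27% of the exon length lies opposite to exons of Ctsb, and the counts ignore strand.

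Sterol sensing and uptake followed, with 7 of 11 genes lower and 2 higher, Insig2 and the SREBP escort Scap. Insig1, which holds back SREBP processing and is itself a SREBP2 target, was at 162, 182, 179.8, 246 and 159 CPM in saline and 34.8, 43.1, 46.7, 53.2 and 42.1 CPM in L-AC (-2.08 ± 0.20, adjusted p = 2.67e-08). Its paralog Insig2 moved in the opposite direction, from 312, 459.9, 329, 252 and 282 CPM to 1699, 1276, 1664, 1882 and 3884 CPM (2.67 ± 0.27, adjusted p = 5.79e-08). Neither gene had overlapping groups. Scarb1, the HDL receptor, fell 3-fold and the sterol carrier Stard4 4.91-fold. Among LXR targets and sterol efflux genes, 3 of 10 rose and 4 fell, beside 25.2% and 23.6% of all genes. The sterol exporters Abcg5 and Abcg8 fell 3.01-fold and 2.38-fold, while the lysophospholipid acyltransferase Lpcat3, the exporter Abca1 and the receptor Nr1h2 rose 1.8-fold, 1.92-fold and 1.23-fold. Abcg1 and Apoe were the other two that fell. Abca1 was lost in 6 of the 10 omissions of a library (adjusted p up to 0.177) and Abcg1 without L-AC library 2 (0.0609).

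Bile acid genes fell from synthesis to transport. In synthesis 9 of 15 genes were lower and 3 higher, all peroxisomal (Hsd17b4, Scp2 and Acot8), with Scp2 lost in 7 of the 10 omissions of a library (adjusted p up to 0.104). Akr1c6 was at 848, 731, 756, 1010 and 705 CPM in saline and 32.7, 70.2, 38.9, 52 and 87.3 CPM in L-AC (-3.85 ± 0.29, adjusted p = 1.15e-09), the 5-beta-reductase Akr1d1 fell 6.59-fold and the conjugating enzyme Baat 1.66-fold. Cyp8b1, which sets cholic acid output, did not pass the test (0.58 ± 0.28, adjusted p = 0.088), although it did without L-AC library 2 (0.79, adjusted p = 0.0077). In transport and the FXR axis 10 of 14 genes were lower and 1 higher, the basolateral exporter Abcc4 (1.03). Abcb11, the bile salt export pump, was at 446, 337, 338, 347 and 431 CPM and 42.5, 64.7, 38.6, 86.7 and 67.2 CPM (-2.67 ± 0.28, adjusted p = 9.15e-08), and Slc10a1, the uptake transporter NTCP, at 465, 519, 477, 522 and 541 CPM and 128, 134, 193, 204 and 159 CPM (-1.62 ± 0.13).

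Among these lower genes of the FXR axis were 3 that act on Cyp7a1, picked for that role after their values were seen. Nr0b2 (SHP), a repressor of Cyp7a1 that FXR induces, was at 99, 88.3, 52.5, 40.5 and 85.1 CPM in saline and 5.05, 5.97, 2.56, 17.4 and 0.617 CPM in L-AC (-3.54 ± 0.59, adjusted p = 3.64e-05, or -4.38 without L-AC library 4). Klb, the co-receptor through which FGF15 acts on liver, and Nr5a2 (LRH-1), an activator of Cyp7a1, fell 2.32-fold and 1.82-fold. None of these 3 had overlapping groups.

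Of 23 hormone-response genes 6 were higher and 7 lower, beside 25.2% and 23.6% of all genes. Gm6484, the file's name for Angptl8, an insulin-induced secreted factor, was at 40.8, 18.2, 25.2, 28.7 and 44.7 CPM in saline and 2.69, 3.63, 2.9, 1.79 and 1.67 CPM in L-AC (-3.64 ± 0.39, adjusted p = 1.10e-07). Inhbe, an activin subunit made by liver, rose 4.1-fold and Igfbp1, an insulin-repressed IGF carrier, 4.29-fold, while Tfeb, a regulator of lysosome genes, fell 1.45-fold. Lepr, the leptin receptor, was at 2.33, 2.43, 4.08, 3.05 and 2.19 CPM and 415, 14.2, 47.6, 15.7 and 33.8 CPM, so that all L-AC libraries were higher but library 1 far more so. Its log2 fold change of 5.22 ± 1.04 became 3.30 without that library. In the growth hormone axis 9 of 18 genes fell and 1 rose (the elongase Elovl3, 1.32): Ghr, the receptor, was at 490.1, 459, 494, 525 and 509 CPM and 137, 255, 147, 201 and 177 CPM (-1.44 ± 0.17), the IGF carrier subunit Igfals fell 3.96-fold, the signal transducer Stat5b 1.73-fold, and Hsd3b5, a male-biased target, 15.2-fold (log2 fold change -3.92, or -3.18 without saline library 1).

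Products that mature liver secretes or uses to clear foreign compounds fell in most lists. Of 39 P450 genes of families 1 to 3, 23 fell and 1 rose (median -0.91). Cyp2d10 was at 865, 859.8, 882, 849 and 854 CPM in saline and 411, 442, 409, 494 and 467 CPM in L-AC (-0.96 ± 0.085, adjusted p = 1.09e-08), and Cyp3a25, Cyp2f2 and Cyp2c44 fell 3.16-fold, 3.3-fold and 3.07-fold. The exception was Cyp2b10, a target of the receptor CAR, at 0.823, 5.96, 0.883, 0.545 and 2.38 CPM and 16.8, 8.73, 26, 20.3 and 86.2 CPM (3.96 ± 0.68, adjusted p = 5.81e-05), with a log2 fold change of 3.14 without L-AC library 5 and 4.72 without saline library 2. Conjugating enzymes followed, with 16 of 21 sulfotransferases and glucuronosyltransferases lower and 1 higher, the estrogen sulfotransferase Sult1e1 (2.06), which was lost without saline or L-AC library 5 (adjusted p = 0.0544 and 0.0749). Examples were Sult2a8 (2810007J24Rik in the files), Sult1c2, Ugt2b34 and Ugt2b36, lower by 4.96-fold, 5.17-fold, 2.46-fold and 2.56-fold. Similar members of these families can exchange reads.

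Of 18 retinoid genes 5 were higher and 6 lower, again beside 25.2% and 23.6% of all genes. Cyp26a1, the retinoic acid hydroxylase that retinoic acid itself induces, was at 14.3, 21.1, 8.41, 9.81 and 26.8 CPM in saline and 0.546, 1.28, 0.621, 2.29 and 0.401 CPM in L-AC (-3.98 ± 0.49, adjusted p = 9.08e-07), and its homolog Cyp26b1 rose 3.27-fold, beside Dhrs9, Rarb, Retsat and Bcmo1. Dhrs9 was not called without L-AC library 1 (adjusted p = 0.0597). Rbp4, the plasma retinol carrier, and the dehydrogenase Aldh1a1 fell 1.61-fold and 3.49-fold.

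Of 35 genes for coagulation factors, lipoproteins and other secreted proteins, 26 fell and 2 rose, Apoa4 and Mttp (median -0.72). F7, F10 and Proc, which encode clotting factors and protein C, fell 2.38-fold, 1.93-fold and 2.07-fold, with F7 at 84.3, 102, 80.1, 90.6 and 87.1 CPM in saline and 38.4, 36.1, 32.1, 41.2 and 38.4 CPM in L-AC. Of 20 major urinary protein genes 14 fell and none rose, by 1.76-fold for Mup3, 2.48-fold for Mup1, 2.16-fold for Mup13 and 2.04-fold for Mup7. These genes are near-identical and some overlap, so the split of reads among them is uncertain. Acute phase genes had 8 of 31 higher and 7 lower, beside 25.2% and 23.6% of all genes. Saa4 was at 226, 262, 165, 182 and 318 CPM and 13.8, 44.9, 7.94, 19.2 and 13.2 CPM (-3.54 ± 0.38), Serpina1c fell 2.02-fold, and Cd14 and Orm2 rose 12.3-fold and 6.5-fold. Without L-AC library 2, or by limma-voom, 5 acute phase genes were higher.

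Amino acid breakdown and the urea cycle had 18 of 39 genes lower and 10 higher, beside 23.6% and 25.2% of all genes. Ido2, an enzyme of tryptophan breakdown, was at 45.2, 70.1, 58.5, 66.3 and 49.6 CPM in saline and 2.69, 5.74, 4.52, 8.58 and 2.31 CPM in L-AC (-3.61 ± 0.46, adjusted p = 1.50e-06). Nags, which makes the activator of the urea cycle, fell 1.88-fold. Sdsl, a serine dehydratase-like enzyme, rose from 18.9 ± 2.18 to 114 ± 26.3 CPM (SD, n = 5), and the arginase Arg1 2.36-fold.

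Genes that ATF4 controls in the integrated stress response rose in 15 of 30 cases and fell in 5 (Psph, Shmt2, Stbd1, Cth and Herpud1, with Shmt2 lost in 5 of the 10 omissions of a library, adjusted p up to 0.0992), with a median of 0.97 in the KO (0.53 without L-AC library 3) and 0.20 in the WT. No gene of the list was called in the test of that difference, where the smallest unadjusted p was 0.0122. Slc3a2, a subunit of amino acid exchangers, was at 57.2, 52.5, 51, 46 and 46.6 CPM in saline and 133, 188, 154, 115 and 226 CPM in L-AC (1.69 ± 0.16, adjusted p = 2.30e-08), and Sqstm1, Sesn2 and Slc7a1 rose 2.01-fold, 2.1-fold and 4.64-fold. Asns, asparagine synthetase, was at 2.51, 0.461, 1.3, 2.48 and 0.494 CPM and 9.48, 8.46, 11.7, 6.9 and 4.72 CPM (2.51 ± 1.01, adjusted p = 0.0437), and 7 of the 10 omissions of a library lost its call (adjusted p up to 0.0947). Slc7a11, the cystine transporter, was at 0.465, 0.293, 0.441, 0.626 and 0.451 CPM and 0.648, 0.642, 7.73, 0.608 and 0.679 CPM, a rise that rested on L-AC library 3 (0.48 without it, adjusted p = 0.239). Fgf21, a stress and fasting hormone, rose 3.29-fold, which was not called without L-AC library 2 (adjusted p = 0.0552). Counts in the list ran from 11 to 16 higher when a library was left out.

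Chaperones and the unfolded protein response of the endoplasmic reticulum did not share in it: 8 of 21 fell and none rose, or 1 without saline library 5 (median -0.65). Edem1 and Sel1l, which act in the disposal of misfolded proteins, fell 2.05-fold and 1.57-fold, and the chaperones Hyou1 and Pdia4 2.4-fold and 1.92-fold. The saline values of Hyou1 spread widely, at 250.4, 129.8, 95.9, 89.9 and 356 CPM against 91.3, 101, 72.9, 57.8 and 61.1 CPM in L-AC.

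The proteasome rose as a complex, with 28 of 31 genes tested higher and none lower. The median log2 fold change was 0.48 in the KO and 0.31 in the WT, and 28 stayed the count in each of the 10 omissions of a library. Psmd4, the ubiquitin receptor of the cap, was at 115, 121, 116, 104 and 109.5 CPM in saline and 320.1, 274, 263, 270.4 and 292 CPM in L-AC (1.33 ± 0.083, adjusted p = 1.30e-10). Psmd8 rose 2.59-fold, Psmd12 1.6-fold and the core subunit Psma5 1.58-fold, and none of the 4 had overlapping groups. Of 43 cytosolic ribosomal protein genes 9 rose and none fell (3 without saline library 5 or L-AC library 1, 4 without L-AC library 4, 5 without saline library 3 or L-AC library 2 or with no filter, and up to 13 without any other library), with Rpl3 1.75-fold and Rpl12 1.56-fold higher. Of 34 mitochondrial ribosomal protein genes 7 were higher and 7 lower, with 4 lower without L-AC library 3 or 5, with age as a covariate or with only the KO libraries fitted, and 11 without library 2. Beside both ribosomal lists, 25.2% of all genes were higher and 23.6% lower.

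Genes for mitochondrial stress and mitophagy rose in 11 of 18 cases and fell in 2 (Park2 and Ppargc1a), with the mitophagy receptor Bnip3l and the pore component Ppif 1.92-fold and 1.81-fold higher. Both falls were lost in some omissions of a library, 5 of 10 for Park2 (adjusted p up to 0.0927) and 7 of 10 for Ppargc1a (up to 0.114). Of 28 autophagy and lysosome genes 11 were higher and 9 lower, beside 25.2% and 23.6% of all genes. Atg2a, which transfers lipid to growing autophagosomes, rose 2.41-fold, the proton pump subunit Atp6v1h 1.73-fold and the protease Ctsd 1.46-fold.

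The NRF2 and glutathione list had 12 of 29 genes higher and 8 lower, beside 25.2% and 23.6% of all genes. Srxn1, sulfiredoxin, which repairs oxidised peroxiredoxins, was at 38.7, 53.6, 46, 50.5 and 46.3 CPM in saline and 206, 202, 601, 203 and 295 CPM in L-AC (2.68 ± 0.27, adjusted p = 4.53e-08), with library 3 the highest, glutathione reductase (Gsr) rose 1.91-fold and Pgd, of the pentose phosphate pathway, 2.87-fold. Gsta3, a glutathione transferase, fell from 765, 864, 877, 1011 and 924 CPM to 142, 268, 201, 233 and 282 CPM (-1.98 ± 0.23, adjusted p = 3.60e-07). The antioxidant response element, searched as TGACNNNGC on both strands without mismatch, lay in the promoter windows of 8 of 25 such genes (32%), of 4 of 25 proteasome genes (16%) and of 16.9% of all 10472. It was present both in Srxn1 (chr2:152105274-152105573, plus strand, 28 bases after the start) and in Gsta3 (chr1:21240335-21240634, plus strand, 121 bases before it), which moved in opposite directions and are shown for that reason, with the match in capitals.
Srxn1: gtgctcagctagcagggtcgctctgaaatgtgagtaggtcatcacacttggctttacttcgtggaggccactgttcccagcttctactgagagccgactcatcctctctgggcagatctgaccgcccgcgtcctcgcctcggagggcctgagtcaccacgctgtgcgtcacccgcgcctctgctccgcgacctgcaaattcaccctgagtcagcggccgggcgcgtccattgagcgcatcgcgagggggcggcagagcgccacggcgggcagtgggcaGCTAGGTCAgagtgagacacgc
Gsta3: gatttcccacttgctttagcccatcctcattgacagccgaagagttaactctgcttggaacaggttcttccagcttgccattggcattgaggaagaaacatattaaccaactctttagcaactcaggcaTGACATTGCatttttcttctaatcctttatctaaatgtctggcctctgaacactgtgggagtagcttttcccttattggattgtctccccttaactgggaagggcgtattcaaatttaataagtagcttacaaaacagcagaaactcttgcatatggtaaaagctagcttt

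Interferon-stimulated genes fell in 21 of 30 cases and rose in none, with a median log2 fold change of -1.18 in the KO and -1.32 in the WT. Stat2, the transcription factor of the type I pathway, was at 77, 73.2, 82.8, 89 and 98.9 CPM in saline and 29.7, 27.9, 37.9, 33.2 and 29.5 CPM in L-AC (-1.41 ± 0.16, adjusted p = 3.43e-07). Igtp and Irgm1, interferon-induced GTPases that guard against intracellular microbes, were at 22.9, 33.8, 29.3, 29.9 and 30.4 and 35.8, 51.4, 37.3, 38.7 and 46.8 CPM in saline, and at 9.35, 7.82, 10.8, 8.44 and 5.5 and 13.1, 12, 20.8, 15.1 and 16 CPM in L-AC. The related GTPase gene Gbp7 fell 3.53-fold and Isg15, a ubiquitin-like modifier, 2.67-fold. Of these 5 genes Isg15 alone had overlapping groups. Immune cells also respond to interferon. The summed CPM of 12 Kupffer cell markers was 125.6 to 253.4 in saline and 66.06 to 200.9 in L-AC, so the groups overlapped. The part of those cells in the fall was not tested.

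The interferon-stimulated response element, searched as GAAANNGAAA on both strands without mismatch, lay in the promoter windows of 14 of 23 listed genes (60.9%) and of 3.73% of all 10472, with 5.15% among genes that fell and 2.99% among genes that rose in the KO. The listed genes are known targets, so their share describes the list. Igtp (chr11:58199306-58199605, plus strand) and Irgm1 (chr11:48871371-48871670, minus strand) are shown because both fell and hold the element just before the start, in capitals.
Igtp: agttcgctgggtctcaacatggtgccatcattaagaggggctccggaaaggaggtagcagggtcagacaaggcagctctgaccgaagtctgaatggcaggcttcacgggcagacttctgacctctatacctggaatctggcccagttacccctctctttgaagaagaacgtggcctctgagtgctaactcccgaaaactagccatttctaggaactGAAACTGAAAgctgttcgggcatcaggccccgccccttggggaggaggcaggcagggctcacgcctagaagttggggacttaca
Irgm1: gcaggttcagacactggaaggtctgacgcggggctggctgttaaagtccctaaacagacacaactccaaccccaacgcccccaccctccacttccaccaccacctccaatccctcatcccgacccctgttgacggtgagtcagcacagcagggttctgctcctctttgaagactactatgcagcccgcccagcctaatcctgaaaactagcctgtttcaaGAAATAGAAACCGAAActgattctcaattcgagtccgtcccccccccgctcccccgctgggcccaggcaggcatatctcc
The match of Igtp begins 34 bases before the start, and that of Irgm1 is a pair of overlapping matches from 30 bases before it.

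Markers of other liver cells were set beside these changes. In bulk tissue, fewer cells of a type and less RNA per cell cannot be told apart. Of 12 Kupffer cell markers 5 fell (Emr1, Csf1r, Folr2, Vsig4 and Cd5l) and 1 rose: Emr1, which encodes the surface protein F4/80, was at 6.34, 18, 4.67, 5.07 and 4.7 CPM in saline and 3.75, 1.36, 2.83, 1.22 and 1.85 CPM in L-AC (-1.80 ± 0.45), while the lysosomal protein Cd68 rose with 10.7, 9.6, 66, 7.29 and 17.9 CPM against 3.44, 4.19, 3.19, 8.2 and 4.04 CPM (2.27 ± 0.47, or 1.30 without L-AC library 3). The calls on Csf1r, Folr2, Vsig4 and Cd5l were each lost on leaving out single libraries, among them L-AC library 2 (adjusted p = 0.056, 0.0778, 0.0889 and 0.106), and the Kupffer count ranged from 1 lower, without saline library 2 or L-AC library 2 or 4, to 6. It was 2 without saline library 1, 3 without saline or L-AC library 5, 1 with age as a covariate and 8 when only the KO libraries were fitted. Among 11 markers of infiltrating and lipid-laden macrophages 3 rose (Gpnmb, Lgals3 and Cd9) and 3 fell (Cx3cr1, Ccr2 and Spp1, with Ccr2 lost without saline library 2 or L-AC library 5, adjusted p = 0.0915 and 0.0707, and Spp1 without saline library 4, 0.0819). Of all genes 25.2% rose and 23.6% fell. Gpnmb, a glycoprotein of lipid-laden macrophages, was at 0.107, 0.545, 0.415, 0.191 and 1.61 CPM and 4.47, 12.1, 39.3, 2.72 and 7.19 CPM (4.43 ± 0.70, adjusted p = 1.98e-05, or 3.45 without L-AC library 3 and 5.39 without saline library 5), and Lgals3, galectin 3, at 2.4, 3.15, 1.84, 1.55 and 2.77 CPM and 3.92, 4.53, 40.3, 1.72 and 2.44 CPM, a rise that was not called without L-AC library 3 (0.43, adjusted p = 0.28).

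Counts for the remaining cell types stand beside 25.2% of all genes higher and 23.6% lower. Sinusoidal endothelial markers had 2 of 11 lower, Stab2 and Clec4g, both lost without L-AC library 5 (adjusted p = 0.0617 and 0.104). In all, Stab2 was lost in 6 and Clec4g in 5 of the 10 omissions of a library. The count was also 0 without saline library 3 or 5 or L-AC library 2 and with age as a covariate, and their summed signal was 268.5 to 335.4 CPM in saline and 254.4 to 328.3 CPM in L-AC. Stellate cell and matrix markers had 2 of 13 higher, Rgs5 and Dcn, the latter lost in 7 of the 10 omissions of a library (adjusted p up to 0.136). In this list 1 was lower, the fibrillar collagen Col3a1 (-1.37), or 3 without saline library 1 and 2 without L-AC library 3. Cholangiocyte markers had 2 of 8 lower, Pkhd1 and Spp1, the latter lost without saline library 4 (adjusted p = 0.0819). Erythroid markers had 1 of 5 lower (Alas2), or 2 without saline library 5 or L-AC library 1. Of 3 neutrophil markers none was called in the main fit. DESeq2, limma-voom and edgeR with DESeq2 size factors or with only the KO libraries called 1 lower. The same count came with a filter of 1 CPM in 5 libraries and without saline library 4 or L-AC library 5. T, B and NK cell markers had 1 of 6 higher (Cd3e) and 2 lower (Cd4 and Ms4a1), all under 1 CPM, or 5 lower without saline library 5 or L-AC library 1, 4 without saline library 1 and 0 with only the KO libraries fitted. Adipocyte markers gave 2 of 5 higher and 1 lower, Adrb3. Fabp4, also made by endothelium and macrophages, was at 4.37, 5.79, 5.35, 30.8 and 4.42 CPM and 53.1, 107, 40.5, 34.5 and 39.8 CPM (2.43 ± 0.54, or 3.47 without saline library 4), and the defining droplet protein Plin1 also rose (2.05, or 3.89 without saline library 5) but reached at most 0.357 CPM.

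Of 14 genes typical of the pericentral end of the liver lobule 8 fell and none rose (1 without L-AC library 3). Of 14 periportal genes 6 fell and 2 rose (Arg1 and Hsd17b13), or 4 without saline library 2. The summed CPM of the pericentral genes had a median of 13130 in saline and 7004 in L-AC, and that of the periportal genes 11480 and 12830. Lgr5, a Wnt-responsive receptor of the pericentral rim, was at 8.23, 6.42, 6.18, 8.06 and 8.61 CPM in saline and 0.853, 0.869, 0.725, 2.07 and 0.494 CPM in L-AC (-2.91 ± 0.40, adjusted p = 3.29e-06), and Gulo, Cyp2e1 and Cyp1a2 fell 2.65-fold, 1.99-fold and 1.94-fold. On the periportal side Etnppl and Ctsc fell 4.13-fold and 2.48-fold. Of 10 hepatocyte defining markers 6 fell and none rose (1 without L-AC library 2), among them Ttr (1.81-fold) and the transcription factor Foxa2 (2.23-fold).

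**Figure D3:**
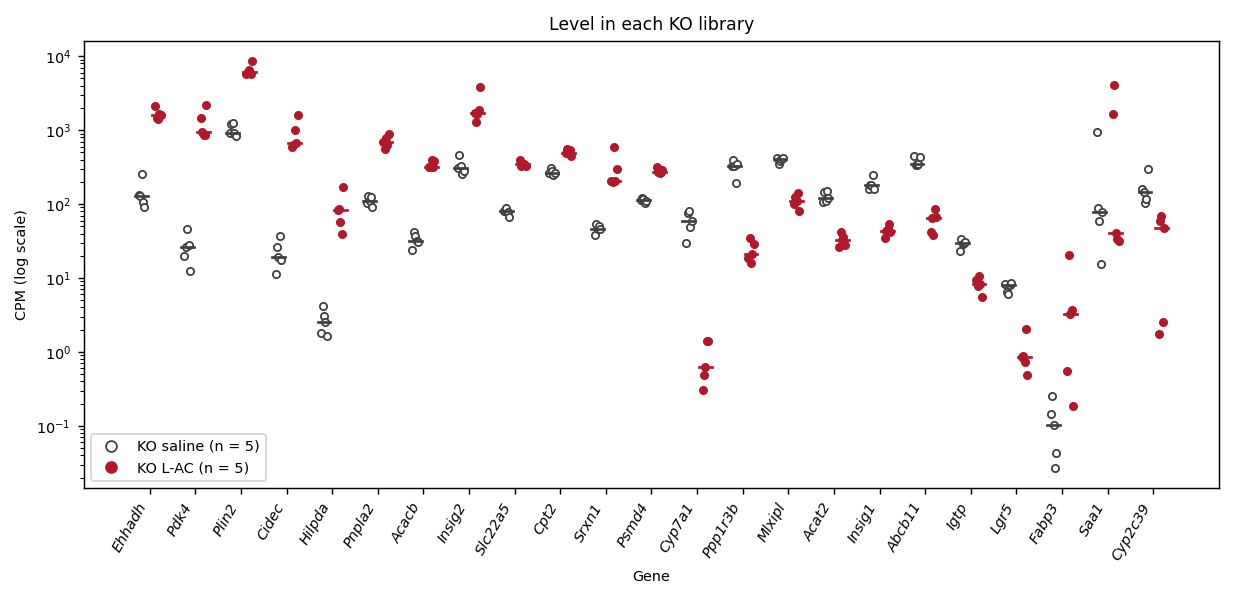
CPM on a log axis of 23 genes named in the text in the 5 saline (open circles) and 5 L-AC (filled circles) libraries of the KO, with a bar at each group's median. The groups are apart for Pdk4, Cidec and Cyp7a1, and overlap for Fabp3 and Saa1.

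KO livers given L-AC differed more among themselves than those given saline. Over 12052 genes at a mean of at least 1 CPM in the KO, the SD of log2 CPM had a median of 0.2322 in L-AC and 0.1611 in saline, and 71.27% of these genes had the larger SD in L-AC. The shallower depth of the L-AC libraries moves with this spread, and its part was not tested. The most variable genes at 1 CPM or more were led by the acute phase proteins Saa1 and Saa2, whose reads can be exchanged. Saa1 was at 939, 87.9, 58.4, 15.4 and 78.2 CPM in saline and at 1635, 4116, 40.3, 33.7 and 32 CPM in L-AC, high in 2 L-AC libraries and in saline library 1, and the contrast did not pass the test (adjusted p = 0.147, or 0.0192 without saline library 1). Saa2 followed with 485, 33.9, 15.6, 6.02 and 21.2 CPM and 1223, 3674, 18, 11.9 and 10.8 CPM (adjusted p = 0.0944, or 0.0114 without saline library 1). Lcn2, an iron-sequestering acute phase protein, reached 586 CPM in L-AC library 2 and 7.62 CPM in library 5, and was not called without library 2 (adjusted p = 0.0849).

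The other 3 of the most variable genes did not pass the test with all libraries. Cyp2c39, a P450 gene of family 2, was at 162, 145, 105, 116 and 298 CPM in saline and 1.74, 59.5, 69.4, 2.54 and 47.3 CPM in L-AC. All L-AC libraries were below the saline libraries, but libraries 1 and 4 far more so (adjusted p = 0.135). Cyp17a1, a steroid hydroxylase, was at 0.644, 12.9, 4.05, 3.51 and 0.751 CPM and 61.8, 12.6, 1.59, 43.9 and 5.46 CPM, highest in the same libraries 1 and 4 (log2 fold change 2.56, adjusted p = 0.0773). It was called without saline library 2 (3.47, adjusted p = 0.0368). Corin, a serine protease, was at 8.41, 0.881, 14.6, 11.5 and 15.1 CPM and 23, 2.3, 0.829, 20.6 and 45.1 CPM.

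**Figure D4:**
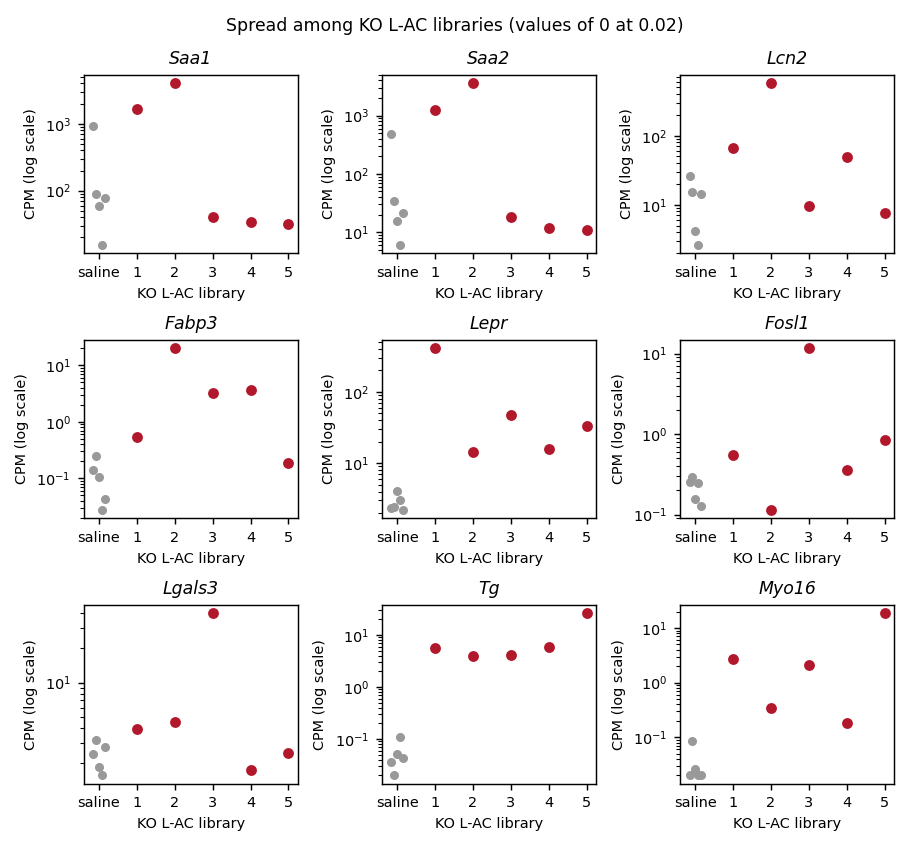
CPM on a log axis of 9 genes in the 5 KO L-AC libraries, numbered 1 to 5, with the KO saline libraries in grey at the left of each panel. Library 2 is highest for Saa1, Saa2, Lcn2 and Fabp3, library 1 for Lepr, library 3 for Fosl1 and Lgals3, and library 5 for Tg and Myo16.

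To ask whether the deletion changed the response, the KO contrast was set beside L-AC against saline in the WT, which uses other animals. In the WT 7572 genes were called, or 53.3% of those tested. Both contrasts called 3087 genes higher and 2918 lower and none in opposite directions, which is 86.73% of the KO calls and 79.31% of the WT calls. Across all 14196 genes, which are not independent replicates, Pearson's r of the log2 fold changes was 0.9346 and the slope of KO on WT 0.9939. In the test of the difference, the interaction of genotype and treatment, 0 genes (0%) were called by edgeR, by DESeq2 or by limma-voom, with 320, 343 and 310 at an unadjusted p under 0.05. Each of these counts is below the share of 0.05 of 14196 genes that chance alone would give. The smallest adjusted p of edgeR was 0.9999.

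**Figure D5:**
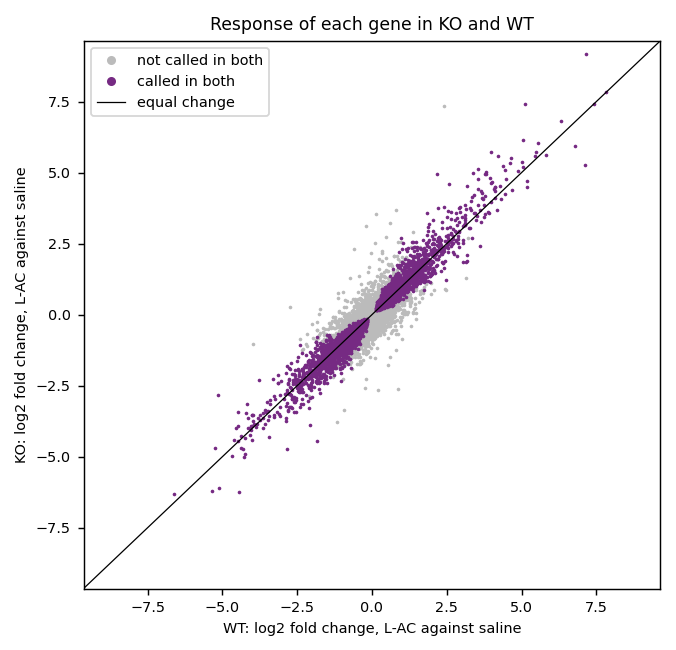
Log2 fold change of L-AC against saline in the KO (vertical) and WT (horizontal) for 14196 genes, with genes called in both in colour and the line of equal change. The points follow the line, with a slope of 0.9939 and a Pearson's r of 0.9346.

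The called genes with the smallest unadjusted interaction p came nearest to a difference. Orm2, orosomucoid 2, was at 26.6, 13, 7.63, 7 and 10.1 CPM in KO saline and 82.8, 95.8, 66.9, 30.6 and 139 CPM in KO L-AC, and its log2 fold change of 2.70 compares with 0.95 in the WT (difference 1.75 ± 0.53, adjusted p = 0.9999). Adamts6, a matrix protease, fell by 5.06-fold in the KO, with a WT log2 fold change of -1.04 and a difference of -1.30 ± 0.40. Enpp1, an ectoenzyme that makes pyrophosphate, changed by -0.31 in the KO and 0.18 in the WT (difference -0.49 ± 0.13), and Pds5b, a cohesin regulator, by -0.56 and -0.19 (difference -0.37 ± 0.12). The histone genes Hist2h3c1 and Hist2h3c2, which share almost all exon bases and hold the same counts, rose 2.7-fold (difference 1.14 ± 0.35). C030037D09Rik and Rpph1, the RNA of ribonuclease P, complete the set of 8, with differences of 0.77 ± 0.23 and -2.30 ± 0.66. None of the 8 was called in the test of the difference, where each adjusted p was 0.9999.

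The 5 L-AC libraries of the KO followed the WT response to different extents. Each was regressed, as its log2 difference from the KO saline mean, on the WT log2 fold changes over all genes, and the slopes were 0.9162, 0.796, 0.9463, 0.8229 and 1.102 for libraries 1 to 5. Library 5, with the steepest slope, was also the farthest out on the leading principal component. The number of calls in the KO was smallest without it, at 3231 higher and 2950 lower genes.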

How the data were processed

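The deposited files hold raw read counts per gene, with no normalization by the authors. Per the labels' protocols, polyA RNA was sequenced as 100-nt single reads. Per the submitters' processing notes, reads were aligned with STAR 2.4.0. Per the file headers, featureCounts 1.4.4 then counted primary alignments over mm10 exons, grouped by gene, without regard to strand and with overlapping genes each given the read.

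Of 24062 genes, 14196 passed filterByExpr (minimum count 10, minimum total 15). With TMM scaling, a model with a mean for each of the 4 groups was fitted to the counts of all 23 libraries in edgeR 4.0.16 (R 4.3.3), and the KO, WT and interaction contrasts were tested by the two-sided quasi-likelihood test. P-values were adjusted by Benjamini-Hochberg over all genes tested and called under 0.05. SE was taken from the log2 fold change and its F statistic, and fold sizes are of the fitted change. The procedure was tested on simulated data. Replicates are different animals; their numbers follow accession order and pair nothing. Among 20 pairs of KO libraries of the same group chi-square over degrees of freedom, for genes with 20 reads or more, was at least 45.5, so none was a repeat. Alternatives were DESeq2 1.42.0 and its size factors, limma-voom (limma 3.58.1), other filters, age as a covariate, the KO libraries alone, an adjusted p under 0.01 and leaving out each library.

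The comparison and the 51 gene lists (1009 symbols, 998 matched by name and 8 by synonym, 966 tested) were chosen with earlier results of these data known. The text names Ehhadh, the 10 largest changes in each direction at 1 CPM or more, up to 4 called members of each list with the smallest p, the 5 largest changes of CPM in each direction, 4 called genes in each direction with the smallest interaction p, and the 6 most variable genes in L-AC. Chosen after their values were seen were Acot1, Acot2, Angptl4, Fabp1, Cpt1a, Fasn, Pck1, G6pc, Cyp8b1, Nr0b2, Igfbp1, Cyp2b10, Asns, Slc7a11, Fgf21, Isg15, Myc, Atf3, Nupr1, Fosl1, Acaa1b and the members given as exceptions to a list's direction or to complete a small count. Some genes that this rule would name are not reported here.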

Additional observations from a re-analysis of the deposited data

Results flagged for a closer look

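In groups of 5 libraries, a library was singled out when its gap to the nearest other took over 0.71 of the group's range, Dixon's 95% critical value for 5. This was applied to the KO saline and KO L-AC values of the 66 genes whose libraries are printed. Of 132 groups 24 were singled out (18.2%), where chance gives about 1 in 20 for normally distributed values. The values used were CPM without a log, for which that rate may not hold. Genes picked for large or variable changes are among the 66, so these groups are not a random sample.

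L-AC library 3 stood high for a set of stress and macrophage genes. It held 11.8 CPM of Fosl1, 40.3 CPM of Lgals3, 39.3 CPM of Gpnmb, 66.0 CPM of Cd68, 7.73 CPM of Slc7a11 and 601 CPM of Srxn1, each above the other 4. The others reached at most 0.834, 4.53, 12.1, 17.9, 0.679 and 295 CPM.

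L-AC library 5 stood high for Tg (26.6 CPM), Myo16 (18.8 CPM), Ivl (9.48 CPM), Cyp2b10 (86.2 CPM) and Insig2 (3884 CPM). The nearest other L-AC libraries held 6.01, 2.66, 0.656, 26.0 and 1882 CPM. L-AC library 2 held the high values of Fabp3 (20.4 CPM) and Fabp4 (107 CPM).

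L-AC library 1 was high for Lepr (415 CPM). For Lgr5 it was L-AC library 4, at 2.07 CPM, that lay nearest to the saline group.

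On the saline side, library 1 was high for Saa1 (939 CPM) and Saa2 (485 CPM), both acute phase genes. Saline library 2 was high for Emr1 (18.0 CPM), Myc (11.7 CPM) and Cyp17a1 (12.9 CPM). Library 3 held the highest Ehhadh level of the group, 253 CPM against at most 132 CPM in the others. Saline library 4 was high for Fabp4 (30.8 CPM), Cd68 (8.2 CPM) and Insig1 (246 CPM).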

How the results depend on the processing

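The counts of calls over all genes stayed within 1.5 times their values in the report under each alternative run. Counts of gene lists with a library left out, an alternative chosen after seeing the data, are given beside some lists in the text. Lists without them moved too. The lower count ran from 12 to 17 for cholesterol synthesis and 12 to 18 for sulfotransferases and glucuronosyltransferases. It ran from 7 to 12 for chaperones, 19 to 24 for interferon-stimulated genes and 22 to 26 for P450 genes. Counts of 1 or 2 genes in a list often moved by 1 gene. In the KO, 3571 higher and 3353 lower genes became 2679 and 2327 at an adjusted p under 0.01, 3200 and 3098 when only the KO libraries were fitted, 3279 and 3011 with age as a covariate, and 3621 and 3494 with DESeq2. Leaving out 1 KO library at a time gave 3231 to 3623 higher and 2950 to 3345 lower genes. The WT count lay between 5670 and 7761, and the interaction called 0 genes under every setting. In the runs called at an adjusted p under 0.05, the share of higher genes among calls in the KO lay between 50.48 and 52.31%. The median log2 fold change over all genes lay between -0.014 and 0.0032. Of 268 genes named with a test, 257 were called in the KO. In the runs called at an adjusted p under 0.05, 225 of these kept direction and call wherever they were tested. The call was lost in at least 1 such run for 32, for 31 of them on leaving out a library. A gene that the filter of a run removed was not checked there, and single genes were not followed at an adjusted p under 0.01. A change of sign occurred only for Fabp1, which was not called: its log2 fold change, -0.13 with all libraries, ran from -0.378 without L-AC library 2 to 0.013 without L-AC library 5. No paired analysis was possible because the labels give no shared replicate numbers.

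Counts ignored strand and were made per gene, so antisense partners, overlapping genes and close paralogs (Mup, Saa, Acot, Ugt2b) are uncertain. Age was lower on balance in the KO L-AC mice, and extraction or sequencing batches are not given in the sources used here. Depth limits genes with few reads, and 14196 of 24062 genes were tested. With 5 animals a group, a gene that misses the threshold is not shown to be unchanged.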

Other observations

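Of 20 clock genes 1 rose (Cry2, or 3 genes without L-AC library 1) and 4 fell in the KO, beside 25.2% and 23.6% of all genes. Hlf, an output factor of the clock, was at 80.2, 77.8, 81.2, 95.5 and 88.3 CPM in saline and 28.9, 42, 31.5, 48 and 38.8 CPM in L-AC (-1.16 ± 0.19, adjusted p = 3.40e-05), and Nfil3 and Nr1d1 were among the others that fell, 2.57-fold and 1.64-fold. The hour at which livers were taken is not given in the sources used here.

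Of 23 replication and mitosis genes 3 were higher (Mcm2, Ccna2 and Cdkn1a) and 5 lower (Birc5, Aurka, Ccnb2, Ccne2 and Tyms). Over all genes 25.2% were higher and 23.6% lower. Birc5 and Aurka, which act in mitosis, fell 6.03-fold and 2.3-fold, while Mcm2, a replication helicase subunit, rose 2.67-fold. Cdkn1a (p21), an inhibitor of cell cycle entry, was at 11.7, 48.7, 23.2, 12.6 and 25.4 CPM in saline and 116, 181, 107, 112 and 333 CPM in L-AC (2.81 ± 0.46, adjusted p = 3.53e-05), without overlap. The transcription factor Myc was at 3.37, 11.7, 3.95, 4.99 and 3 CPM and 22.7, 29.1, 39.8, 31.5 and 53.5 CPM (2.73 ± 0.44, adjusted p = 2.92e-05), also without overlap. Without saline library 2, or with only the KO libraries fitted, the lower count was 3. Ccne2 was lost in 8 of the 10 omissions of a library (adjusted p up to 0.145), and Tyms in 3 (up to 0.073). Of Ccne2, 53.9% of the exon length lies opposite to Ints8 (log2 fold change -0.36). Of Ccna2, 13.4% lies opposite to Exosc9 (0.82), and the counts ignore strand.

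ATF4 sites gave a further description. The C/EBP-ATF response element, searched as TGATGNAA on both strands without mismatch, lay in the promoter windows of 10 of 27 listed ATF4 genes (37%) and of 2.98% of all 10472. Of those 10, Atf3 and Nupr1, stress-induced regulators, rose 5.85-fold and 5.94-fold, both highest in L-AC library 3, and the log2 fold change of Nupr1, 2.57, was 1.55 without that library. The element did not go with a rise throughout, since 2 of the 10 had negative log2 fold changes, of which Herpud1 fell (-1.06). Fosl1, an AP-1 subunit, was at 0.251, 0.293, 0.156, 0.245 and 0.129 CPM in saline and 0.546, 0.113, 11.8, 0.357 and 0.834 CPM in L-AC, and its log2 fold change of 3.70 was 1.17 without that library. Of Fosl1, 67.7% of the exon length lies opposite to Ccdc85b.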
